A study of Mus musculus with 5 samples.

Results

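Collagen-expressing stromal cells of the mouse kidney were selected from 4 droplet single-cell RNA libraries by the unique molecular identifiers (UMIs, each marking 1 captured RNA molecule) of 4 genes. A cell was taken when Col1a1, Col1a2, Col3a1 and Dcn together had at least 5 UMIs, with at least 2 of these genes detected. It also had to lack UMIs of Ptprc, the pan-leukocyte gene, and of Epcam, an epithelial gene, and to have at most 1 UMI of the endothelial gene Egfl7 and fewer than 3 UMIs over Wt1, Ncam1 and Wnt16. The rule took 107 of 13823 cells, counting those with 200 or more detected genes and no more than 50% of UMIs from mitochondrial genes. The study followed the kidney of C57/BL6 mice aged 8 weeks through UUO, the obstruction of a ureter, and its reversal. The libraries were from sham surgery (day 0), 2 days of UUO, 7 days of UUO, and kidneys taken 7 days after the obstruction was reversed (experimental day 14). Cells of 3 mice, whose sex is not stated, were pooled in each, and no genetic change is named in any group. Whole kidneys were dissociated in the cold and sorted for DAPI-negative live cells, with no stated enrichment for stroma.

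Fibroblasts and perivascular cells of the kidney lie between the tubules and around vessels, carry receptors for platelet-derived growth factor, and secrete the collagens and proteoglycans of the interstitial matrix. In the obstructed kidney they multiply, and some take on the contractile, Acta2-expressing state of the myofibroblast, under control of signals that include TGF-beta. Fibrosis is the build-up of their matrix, and release of the obstruction is a classical way to study how far it can regress.

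With 1 library per condition, no test between conditions was possible. Every interval is an exact 95% interval that covers counting error only, and the spread between mice cannot be seen. The selected cells held 19957 UMIs (day 2), 400122 (day 7) and 394488 (reversal), at a median of 4383, 7456 and 5502.5 per cell. Median mitochondrial shares were 7.12%, 3.34% and 3.97%. Pairs of libraries shared 16 to 39 cell barcodes, 5 of the selected cells had a barcode that was also in another library, and no barcode was selected in more than 1.

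No stromal cell was selected in the sham library, and the libraries of day 7 and reversal gave about the same number of selected cells. The sham library was also shallower, with a median of 2709 UMIs per kept cell against 6590, 5732 and 4938 in the others, and the part of depth in a rule with a UMI minimum was not tested. None of the 3933 sham cells was selected (0%, interval 0 to 0.0938%), where 3 cells would have been 0.0763%. On day 2 there were 4 of 2207 cells (0.181%, interval 0.0494 to 0.463%), on day 7 there were 51 of 4447 (1.15%, 0.855 to 1.51%), and after reversal 52 of 3236 (1.61%, 1.20 to 2.10%). The intervals of day 7 and reversal overlapped. With a mitochondrial limit of 20% the shares were 1.20% and 2.51%. Tubule cells made up a varying part of each library. When cells with at least 2 UMIs of tubule markers were left out of the denominator, the share was 0.399% on day 2, 1.38% (1.03 to 1.81%) on day 7 and 3.26% (2.45 to 4.26%) after reversal, and the last intervals no longer overlapped. In sham this left 462 cells, with an interval of 0 to 0.795% (3 cells would have been 0.649%). A share of droplets also depends on how well each cell type survives digestion and sorting, which was not tested.

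**Figure D1:**
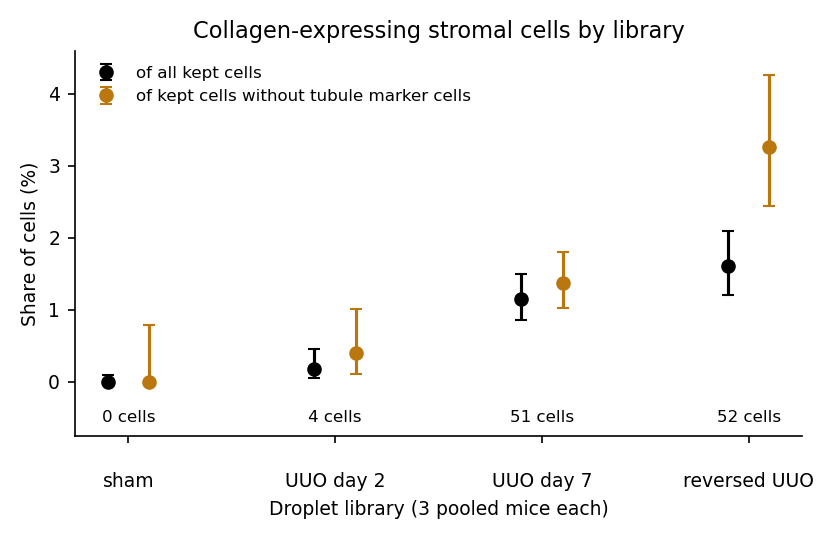
Share of selected stromal cells in each droplet library, in percent, among all kept cells (black) and among kept cells without tubule marker cells (orange), with exact 95% intervals for counting error and the number of selected cells under each point. The points lie at 0 in sham and highest after reversal, and the orange intervals of day 7 and reversal do not overlap.

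The limit of 5 UMIs itself decided little, since no otherwise fitting cell had a sum of 4 or 5. The lowest selected cell, on day 7, had 6 UMIs, and just outside the limit 1 sham cell, 1 day 2 cell and 2 day 7 cells had 3. The selected cells had a median sum of 79.5 (day 2), 114 (day 7) and 51.0 (reversal). The other limits removed more. On day 7, 102 cells met the collagen criterion, of which 33 had a Ptprc UMI, 14 an Epcam UMI, 8 too many Egfl7 UMIs and 20 too many UMIs of Wt1, Ncam1 and Wnt16. The 9 day 7 cells left out by the Wt1, Ncam1 and Wnt16 limit alone had a median collagen sum of 522, and the 16 left out by Ptprc alone one of 267, both above that of the selected cells. After reversal 81 cells met the collagen criterion, and 12 failed by the Wt1, Ncam1 and Wnt16 limit alone, with a median sum of 22.0. The only sham cell that met the collagen criterion was also left out by that limit.

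Of the stromal genes that did not enter the rule, the receptors Pdgfrb and Pdgfra were present in most of the cells. Rgs5, Notch3, Cspg4 and Myh11, of pericytes and smooth muscle, were found in a minority. Tagln, also of smooth muscle, was at 0 in 24 of 51 day 7 and 22 of 52 reversed cells. Pdgfrb, the receptor of perivascular cells and fibroblasts, had a UMI in 39 of 51 day 7 cells (76.5%) and 39 of 52 reversed cells (75.0%). In tubule marker cells of the same libraries it had one in 2.00% and 2.80%, and in leukocyte marker cells in 1.45% and 2.32%. Those background cells had median depths of 6861 and 5118 UMIs (tubule) and 5699 and 4709 UMIs (leukocyte), near those of the stromal cells. Pdgfra, the receptor more typical of interstitial fibroblasts, was found in 41 of 51 (80.4%) and 38 of 52 cells (73.1%), against 2.00% and 0.426% of tubule marker cells. Both receptors were detected in 33 of 51 day 7 cells (64.7%, 50.1 to 77.6%) and 27 of 52 reversed cells (51.9%, 37.6 to 66.0%). Pdgfra alone was found in 8 and 11 cells and Pdgfrb alone in 6 and 12. The part of depth in these counts was not tested. Rgs5, Notch3 and Cspg4, genes of pericytes, were found in 12, 9 and 5 of 51 day 7 cells and in 3, 11 and 8 of 52 reversed cells, and Myh11, smooth muscle myosin, in 2 and 5. Tubule marker cells had a UMI of Rgs5 in 3.20% and 3.16%, of Notch3 in 2.66% and 1.70%, of Cspg4 in 3.595% and 5.42% and of Myh11 in 0.533% and 1.22%. With at least 2 UMIs the 4 genes were in 9, 3, 1 and 1 of the day 7 and 1, 3, 5 and 3 of the reversed cells. Thinned to 1000 UMIs per cell, which no selected cell fell short of, the Pdgfrb share was 29.4% and 19.2%.

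Beyond collagens, the cells carried abundant RNA of matrix and secreted proteins. Among the 15 genes of highest level over all 107 cells were Mgp, which keeps soft tissue from calcifying (18078 CPM, UMIs scaled to the same total in every group), Igfbp7, a binding protein of insulin-like growth factors (9674 CPM), Sparc, a collagen-binding protein (5089 CPM), and Bgn, a small proteoglycan (2225 CPM). Also among them were Malat1, Tmsb4x, Actb, Lgals1, Fth1, Tmsb10, Eef1a1, Ftl1, Ubb and Ptma. Nphs1 of podocytes, Msln, Upk3b and Lrrn4 of mesothelium, and Sox10 of Schwann cells were at 0 in every selected cell, as was the renin gene Ren1. Other markers of these types were detected at low counts. Of 4 podocyte markers 2 had 45 UMIs in all on day 7 (up to 0.162% of a cell) and 3 had 24 after reversal, 2 Schwann cell markers had 8 and 5 UMIs, and 1 mesothelial marker had 2 and 1. Of the list of mesangial and renin genes, Itga8 had 9 UMIs on day 7 and 3 after reversal and Gata3 had 1 in each, while Serpine2, also on that list and its only gene with enough UMIs for a ratio, was found in 35 of 51 and 51 of 52 cells. Of the cell cycle genes, Mki67 had a UMI in 2 day 7 cells and Top2a in 4, or 3.92% and 7.84%, against 5.06% and 4.66% of tubule marker cells. Top2a was also in 1 day 2 cell, and no reversed cell had a UMI of either.

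RNA of tubule and leukocyte genes was present at low levels and moved between the libraries. Tubule markers made up a median of 0.222% of a cell's UMIs on day 7 and 0.745% after reversal, or 0.0819% and 0.259% without Spp1, which is described further on. Leukocyte markers made up 0.430% and 0.169%. Per cell, the tubule share ran from 0.0817 to 6.29% (day 7) and from 0.186 to 15.1% (reversal), and the leukocyte share from 0.299 to 2.55% and from 0 to 0.446%. Tubule marker cells themselves had medians of 2.65% and 3.62%, and leukocyte marker cells 5.66% and 3.65% of their own list. Leukocyte markers made up a median of 0.4215% and 0.166% of UMIs in tubule marker cells. Tubule markers made up 0.1705% and 0.35% in leukocyte marker cells, or 0.0647% and 0.299% without Spp1. Of the 7 tubule markers with enough UMIs, 6 were at least 2-fold higher in reversed cells, and of 11 leukocyte markers 10 were at least 2-fold lower. The part of this in the gene differences reported here was not tested, and levels in the other cell types are given beside the genes they touch.

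The 4 cells of day 2 are too few for a comparison. Their Col1a1 UMIs were 62, 8, 2 and 13, and their Col3a1 UMIs 108, 14, 41 and 51. Lum, a keratan sulfate proteoglycan that binds collagen fibrils, had 15, 15, 0 and 2 UMIs, and Mgp 378, 156, 8 and 43. None had an Acta2 UMI, which at these depths and this number of cells says little about expression. Pdgfrb was detected in 2 and Pdgfra in 3 of them.

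Acta2, smooth muscle actin and the usual sign of the myofibroblast, was concentrated in few cells in both libraries. A UMI was present in 25 of 51 day 7 cells (49.0%, 34.8 to 63.4%) and in 20 of 52 reversed cells (38.5%, 25.3 to 53.0%), and the intervals overlapped. Tubule marker cells had one in 6.26% and 10.7%, and leukocyte marker cells in 6.64% and 8.89%. With at least 2 UMIs the shares were 33.3% and 26.9% of stromal cells against 1.47% and 2.80% of tubule and 0.484% and 1.55% of leukocyte marker cells, so the background lay mainly in single UMIs. Counts of 1 or 2 made up 11 of the 25 and 7 of the 20 positive cells. The positive cells of day 7 had 1 to 86 UMIs with a median of 5, and 8 cells with at least 10 UMIs held 86.9% of all 359. After reversal they had 1 to 88 with a median of 4, and 5 cells held 81.1% of 249. Thinned to 1000 UMIs, the shares were 23.5% and 21.2%. Acta2-positive cells were deeper, with a median of 9691 against 4888 UMIs on day 7 and 9827 against 4342 after reversal.

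Pdgfrb was found in cells with and without Acta2. Of the 39 cells with Pdgfrb in each library, 22 had Acta2 on day 7 and 14 after reversal. On day 7, 22 cells had both genes, 3 had Acta2 alone, 17 had Pdgfrb alone and 9 had neither. After reversal, 14 had both, 6 had Acta2 alone, 25 had Pdgfrb alone and 7 had neither. The 22 and 14 cells with both held 356 and 228 of the Acta2 UMIs. Cells with both were also deep, at a median of 10726 and 11056 UMIs, and cells with neither shallow on day 7, at 3013 UMIs.

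Between day 7 and reversal a number of matrix genes were lower. Levels are CPM summed over cells, ratios are log2 of CPM with 10 CPM added to each group, which understates differences of low genes, and a gene was counted as higher or lower when the ratio was at least 2-fold. Of 4013 genes with at least 30 UMIs over both groups, 97 were higher in reversed cells (2.42%) and 131 lower (3.26%), with a median log2 ratio of -0.01. Among 16 listed collagens 6 were lower, none was higher, and the median was -0.78. The chains that form the main fibrils, Col1a1 (5516 against 2467 CPM, log2 ratio -1.16), Col1a2 (6336 against 3083 CPM, -1.04) and Col3a1 (7173 against 2266 CPM, -1.66), are among them but were used to select the cells, and stand here as description. The other 3 were Col5a1 and Col5a2, which regulate fibril diameter, at -1.32 and -1.27, and Col6a3, a chain of the microfibrils around cells, at -2.05 (interval -2.43 to -1.69). Basement membrane chains were less far apart, with Col4a1 at -0.97 and Col4a2 at -0.53, and Col15a1 at 0.25 and Col8a1 at 0.69 were on the other side of 0. Without the 3 deepest cells of each library 3 of the 16 were lower and the median was -0.43. The rule genes Col1a1, Col1a2 and Col3a1 count in the 16 collagens and in their medians throughout.

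Of the matricellular, elastic fibre and proteoglycan genes 10 of 19 were lower in reversed cells and none was higher, with a median of -1.0. Eln, the elastin gene, was at 355 CPM on day 7 against 58.3 CPM (-2.42), Postn, a matricellular protein of injured stroma, at 165 against 40.6 CPM (-1.79), and Mfap5, a microfibril protein, at 725 against 162 CPM (-2.09). Aspn, Lum, Ctgf, Mfap4, Cyr61, Fbln1 and Vcan were lower as well, from -3.17 for Aspn to -1.0 for Vcan. Tnc at 0.64 and Thbs1 at 0.36 were the only measured genes of the list above 0. Postn was detected in 31.4% of day 7 cells and 9.62% of reversed cells, and Mfap4 in 56.9% and 23.1%, while Eln was detected in about as many cells, 31.4% and 28.8%. For Eln, then, the difference lay in the UMIs per positive cell, and for Postn and Mfap4 in the number of positive cells as well. The machinery of collagen folding and cross-linking differed less, with 2 of 13 lower: Lox, which cross-links collagen and elastin (-1.57), and Adamts2, which trims procollagen (-1.16). Serpinh1, the collagen chaperone, was at 1907 and 1625 CPM (-0.23), and Cthrc1, a secreted gene of activated fibroblasts named after its values were seen, at 250 and 15.2 CPM (-3.37), with 33.0% of its day 7 UMIs in 1 cell.

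**Figure D2:**
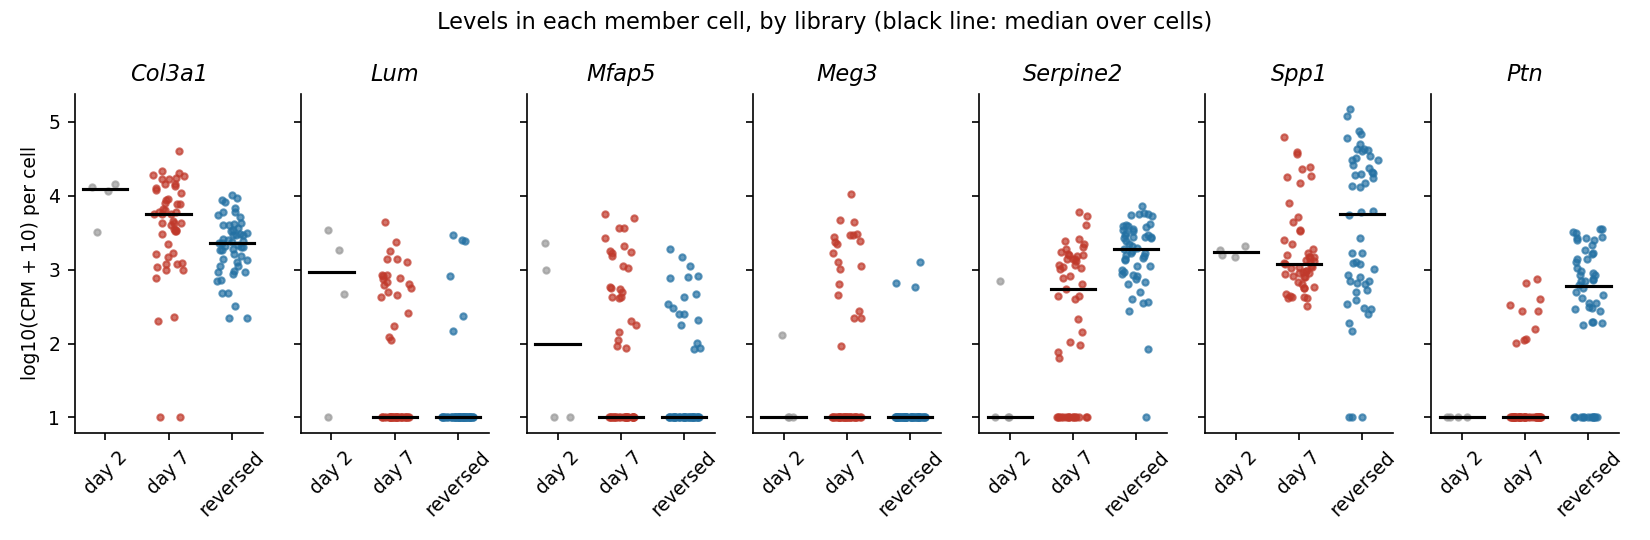
Level of 7 genes in each selected cell on day 2 (grey), on day 7 (red) and after reversal (blue), as log10 of CPM + 10 per cell; each point is a cell and the black line is the median over cells. Lum, Mfap5 and Meg3 were at 0 in 46, 35 and 49 of 52 reversed cells and in 29, 26 and 31 of 51 day 7 cells, whereas Serpine2 and Ptn were detected in 98.1% and 76.9% of reversed cells.

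Contractile genes as a list were close to the background, with 1 of 12 lower (Actg2, -1.70) and a median of -0.18. With the highest Scrublet scores removed, none of 11 was past the limit and the median was 0.15. Without the 3 deepest cells of each library, none of 11 was past it either, with a median of -0.03. Tagln, an actin-binding protein of smooth muscle, had 1025 and 973 CPM (-0.07), and Acta2 897 and 631 CPM (-0.50). Of the pericyte list 2 of 5 were lower, Rgs5 (-2.42), of which 62.8% of the day 7 UMIs were in 1 cell, and Ndufa4l2 (-1.71). Pdgfrb itself was at 265 and 226 CPM (-0.22), and Pdgfra at 287 and 246 CPM (-0.22). In the list of interstitial and adventitial fibroblast genes 5 of 10 were lower, namely Thy1, Igfbp6, Dpep1, Lum and Mfap5, with a median of -1.0. Gsn (0.15), Dpt (0.77) and Pi16 (-0.37) were not past the 2-fold limit. With no UMI minimum 5 of 14 genes of this list were lower, with a median of -0.48. Among cells without a Lum UMI 3 of 9 were lower and 1 higher (-0.58). Among genes above the marker cells of the other types 5 of 8 were lower (-1.39). Pi16 was as high or higher in endothelial marker cells, which had 232 and 423 CPM in the 2 libraries against 232 and 177 CPM in the stromal cells.

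Of 15 TGF-beta genes 3 were higher after reversal, none was lower, and the median was 0.32. With no UMI minimum 3 of 19 were higher and 1 lower with a median of 0.02, and with 50 CPM added 1 of the 15 was higher. Tgfb2, a ligand, was at 22.5 and 88.7 CPM (1.60), Tgfbi, a matrix protein induced by the pathway, at 47.5 and 122 CPM (1.20), and Bambi, a decoy receptor that dampens it, had 10 and 53 UMIs (2.04), although 41.5% of the reversed Bambi UMIs came from 1 cell. Tgfb1, the most studied ligand, was at 247 and 428 CPM (0.77). The receptors Tgfbr1 and Tgfbr2, at 0.06 and -0.06, and the inhibitor Smad7, at -0.14, were near equal. Of the PDGF list none of 3 was past the limit.

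Signals to other cells differed gene by gene. Of 10 chemokines and cytokines, Il34, a ligand of the macrophage growth factor receptor, was higher after reversal (6 and 33 UMIs, 1.91, detected in 11.8% and 38.5% of cells), and so was Ccl2 (1.80), but 88.9% of the reversed Ccl2 UMIs were in 1 cell. Ccl7 was lower (-1.47), at levels under those of leukocyte marker cells. Of 9 growth factors and binding proteins, Rspo3, an enhancer of Wnt signals, was higher (1.76), and Igf1 (182 and 45.6 CPM, -1.79), Vegfa (-1.37) and Igfbp3 (-2.95) were lower. With 50 CPM added 0 of the 9 were higher and 2 lower. With the highest Scrublet scores removed 0 of 7 were higher and 2 lower, and among cells without a Lum UMI 0 of 8 and 3. Igfbp3 was far higher in endothelial marker cells, at 1801 and 873 CPM, and 53.3% of its day 7 UMIs were in 1 cell. Of 5 complement genes C3 was lower (235 and 38.0 CPM, -2.35), and tubule marker cells had 225 and 69.5 CPM of it. Of 12 proteases and inhibitors only Adamts5, a versican-cleaving protease, was past the limit (-1.74), with Mmp2 at 195 CPM in both and Timp1, an inhibitor of matrix proteases, at 985 and 1394 CPM (0.50). None of 10 interferon response genes, of 5 stromal transcription factors or of 1 cell cycle gene with enough UMIs was past it, and of 10 immediate-early and heat shock genes only Dusp1 was (-1.64). That list had a median of -0.19. Without the 3 deepest cells of each library 3 of its 10 genes were lower (-0.66). Among cells without a Lum UMI Fosb, Jun and Dusp1 were lower (-0.83). Among genes above the marker cells of the other types none of 7 was past the limit.

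The rule for naming genes leaves out the selection genes and the markers of other cell types. By that rule the largest ratio after reversal was that of Ptn, pleiotrophin, a heparin-binding growth factor (GRCm38 chr6:36714929-36810220, minus strand). It had 33 UMIs on day 7 and 403 after reversal, or 82.5 and 1022 CPM (log2 ratio 3.48, interval 3.01 to 3.97). A UMI was present in 10 of 51 cells (19.6%) and 40 of 52 (76.9%), with a median of 0 and 3 and a maximum of 13 and 42 UMIs per cell. Tubule, leukocyte and endothelial marker cells had 9.09, 10.8 and 87.0 CPM after reversal, all far under the stromal level. Thinned to 1000 UMIs, the shares of positive stromal cells were 5.88% and 42.3%.

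Serpine2, a secreted inhibitor of serine proteases also known as protease nexin (chr1:79794197-79861180, minus strand), was also high and in nearly every reversed cell. It had 409 and 1085 UMIs, 1022 and 2750 CPM (1.42, 1.26 to 1.59), and was found in 35 of 51 and 51 of 52 cells. Endothelial marker cells also expressed it, at 195 and 337 CPM, and tubule marker cells had 13.4 and 30.9 CPM. By the rule for naming genes the others higher after reversal, besides Il34, were Serpini1 (3 and 35 UMIs), Chn2 (1.97), Tmem27 (2.34), Ttc36 (1.98), Guca2b (1.92) and Chchd10 (1.83). The last 4 were higher in tubule marker cells than in the stromal cells themselves, at 1113, 598, 781 and 1221 CPM after reversal, and the part of tubule RNA in them was not tested.

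The gene most in deficit by the same rule was Meg3, a maternally expressed noncoding RNA (chr12:109541001-109571726, plus strand). It had 272 UMIs on day 7 in 20 of 51 cells, and 14 UMIs after reversal in 3 of 52, or 680 and 35.5 CPM (-3.92, -4.58 to -3.28). Endothelial marker cells had 291 and 170 CPM. Mfap5 and Col6a3, given with the matrix, and Pcsk5, a proprotein convertase (-1.91), followed. Of the remaining 4, Ccl12, C1qc and H2-DMb1 were higher in leukocyte marker cells and Lcn2 in tubule marker cells than in the stromal cells, and their part in these ratios was not tested.

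Spp1, osteopontin, a secreted phosphoprotein of injured tubules and of macrophages (chr5:104435118-104441050, plus strand), stood apart from the other tubule markers. Its stromal level was 1654, 6011 and 27537 CPM at day 2, day 7 and reversal. In tubule marker cells it ran the other way, at 45138, 25871 and 6442 CPM, so after reversal the stromal cells were above the tubule cells of the same library. Leukocyte marker cells had 1481 and 1379 CPM in the last 2 libraries. Per cell it ranged from 1 to 563 UMIs on day 7 with a median of 9, and from 0 to 2166 after reversal with a median of 35, where the highest cell gave 14.8% of its UMIs to this gene. Cells with at least 100 UMIs numbered 7 and 18, and the 3 highest cells held 47.2% and 45.9% of all Spp1 UMIs. The level therefore rests on a minority of cells in each library, which are more numerous after reversal.

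The selected cells could be divided by Lum, which was chosen after its values had been seen, so what follows is a description. Lum (chr10:97565128-97572703, plus strand) had a UMI in 22 of 51 day 7 cells (43.1%, 29.3 to 57.7%) and in 6 of 52 reversed cells (11.5%, 4.35 to 23.4%), and in 3.6% and 0.609% of tubule marker cells. Thinned to 1000 UMIs, the shares were 17.6% (8.40 to 30.9%) and 7.69% (2.14 to 18.5%), and the intervals overlapped. On day 7, 13 cells had Lum without Serpine2, 26 had Serpine2 without Lum, 9 had both and 3 had neither. After reversal, 46 had Serpine2 without Lum, 5 had both and 1 had Lum without Serpine2. Depth hardly differed on day 7, at a median of 7662 UMIs with Lum and 7456 without.

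**Figure D3:**
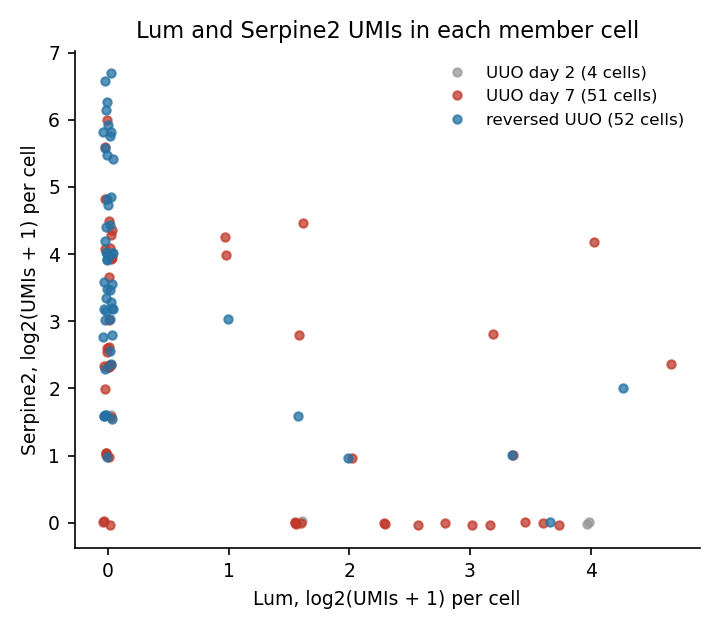
UMIs of Lum (horizontal) and Serpine2 (vertical) in each selected cell, as log2 of UMIs + 1 with a small random shift, coloured by library. Of the 52 reversed cells 46 lie along the left edge with Serpine2 and no Lum, and 13 of the 51 day 7 cells lie along the lower edge with Lum alone.

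The day 7 cells with Lum were higher in several collagens that did not enter the rule. These were Col5a1, Col5a2, Col6a1, Col6a2, Col6a3, Col8a1, Col12a1 and Col16a1. Lum-positive cells had 9958 CPM of Col1a1 against 1818 CPM in Lum-negative cells, and 12346 against 2867 CPM of Col3a1. Both are rule genes, which selected the cells, and stand here as description. Of 2126 genes with enough UMIs 94 were higher in Lum-positive cells (4.42%) and 141 lower (6.63%). Of 16 collagens 11 were higher, the rule genes Col1a1, Col1a2 and Col3a1 among them, with Col5a1 at 2.58, Col6a2 at 2.32 and Col6a1 at 1.89, and only Col18a1, of basement membranes, was lower (-1.15). Of 19 matricellular and elastic genes 12 were higher, Lum itself, which made the split, included, and 1, Fbln5, lower, with Eln at 765 against 13.7 CPM (5.03), Mfap5 at 1502 against 77.8 CPM (4.11) and Fbln1 at 2.94. Pi16, a marker of adventitial fibroblasts, was at 457 against 45.8 CPM (3.06), Meg3 at 1392 against 87.0 CPM (3.85), and Fndc1 had 38 UMIs against 0, at least 15.2-fold higher. Also named were Mfap4 (3.67) and Clec11a, a growth factor of bone stroma (2.84). Of 10 leukocyte markers S100a8 (2.68) and S100a9 (2.22) were higher in Lum-positive cells, with 90.5% and 87.7% of their UMIs there in 1 cell, and the endothelial marker Emcn was lower (-1.91).

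Lum-negative cells of day 7 had their own genes. Serpine2 was at 1466 CPM against 490 CPM in Lum-positive cells (-1.56), Spp1 at 8935 against 2498 CPM (-1.84), and the metallothionein Mt1 at 4337 against 462 CPM (-3.20). Mylk, myosin light chain kinase, was the only contractile gene of 12 past the limit (-1.77), while Tagln was at 1021 and 1029 CPM. Epas1, a hypoxia-inducible factor (-2.64), Errfi1, an inhibitor of EGF receptors (-2.50), the chemokine Cx3cl1 (-2.22) and Hsd11b1, which activates glucocorticoids (-2.15), were lower in Lum-positive cells by the rule for naming genes, as were Rasl11a, Mmd and 1500009L16Rik. Of 10 immediate-early and heat shock genes 6 were higher in Lum-negative cells, among them Fos, Jun and Ier2, and Hspa1a was lower. Pdgfra and Pdgfrb did not divide the kinds, with Pdgfra in 16 of 22 and 25 of 29 cells and Pdgfrb in 15 of 22 and 24 of 29. Cd34 was found in 7 of 22 Lum-positive and in none of 29 Lum-negative cells, whose interval reaches 16.9 CPM. After reversal Cd34 was in 2 of 6 Lum-positive cells (53.1 CPM) and in 8 of 46 Lum-negative cells (30.8 CPM).

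Among Lum-negative cells alone, the matrix lists lay near 0 between day 7 and reversal. Lum is itself one of the matrix genes lower after reversal, and its positive cells were higher in matrix RNA on day 7, so leaving them out lowers the day 7 matrix level by construction, and the smaller difference is no separate result. This comparison of 29 with 46 cells shares its cells with the one above and was added after the data had been seen. Of 3032 genes 92 were higher after reversal (3.03%) and 108 lower (3.56%). Of 16 collagens 1 was higher, Col8a1 (1.40), and 1 lower, Col6a3 (-1.16), with a median of 0.10 in place of -0.78. Col1a1 had 1818 and 2222 CPM, and Col3a1 2867 and 2147 CPM. Of 15 matricellular genes 3 were lower, Cyr61, Ogn and Fbln5, with a median of 0.06, and Mfap5 was at 77.8 and 81.3 CPM.

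Other genes were past the limit among Lum-negative cells, not all of which were so over all cells. Ptn was at 73.3 and 1116 CPM (3.76, 3.11 to 4.46) and was found in 5 of 29 and 39 of 46 cells. Serpine2 was at 1466 and 3002 CPM (1.03), and Spp1 at 8935 and 30412 CPM (1.77). Dcn, a rule gene, was lower, at 1443 and 384 CPM (-1.88), and so were the chemokine Cxcl12 (330 and 22.4 CPM, -3.39, against -0.99 over all cells), C3 (-3.01), Thy1 (-2.26) and Mt1 (-2.11). Acta2, which was not past the limit over all cells, was so here, at 1099 and 502 CPM (-1.12), as were Myl9 (-1.43) and Tpm2 (-1.31), while Myh9 was higher (1.07). Of the Acta2 UMIs 29.6% and 49.2% were in 1 cell. Of 12 TGF-beta genes 4 were higher, Tgfb2 (1.53), Ltbp4 (1.15), Bambi (2.46) and Tgfbi (1.02), and none lower. Others named were Serpini1 (2.07), Ptprb (2.03), Sesn3, a stress-induced regulator of growth signalling (1.86), Lmcd1 (1.73) and Pi16 (1.72, against -0.37 over all cells), all higher after reversal, and Ndufa4l2 (-2.12) and Dpep1 (-1.71), lower. Pi16 was at 45.8 and 174 CPM in these Lum-negative cells, under the levels given above for endothelial marker cells of both libraries. The part of endothelial RNA in its ratio was not tested. Guca2b and Tmem27, of tubules, and C1qc, H2-DMb1, Ctss and H2-Aa, of leukocytes, were also among the named, beside marker lists of those types with median shares of 0.272% and 1.56% (tubule) and 0.417% and 0.168% (leukocyte).

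**Figure D4:**
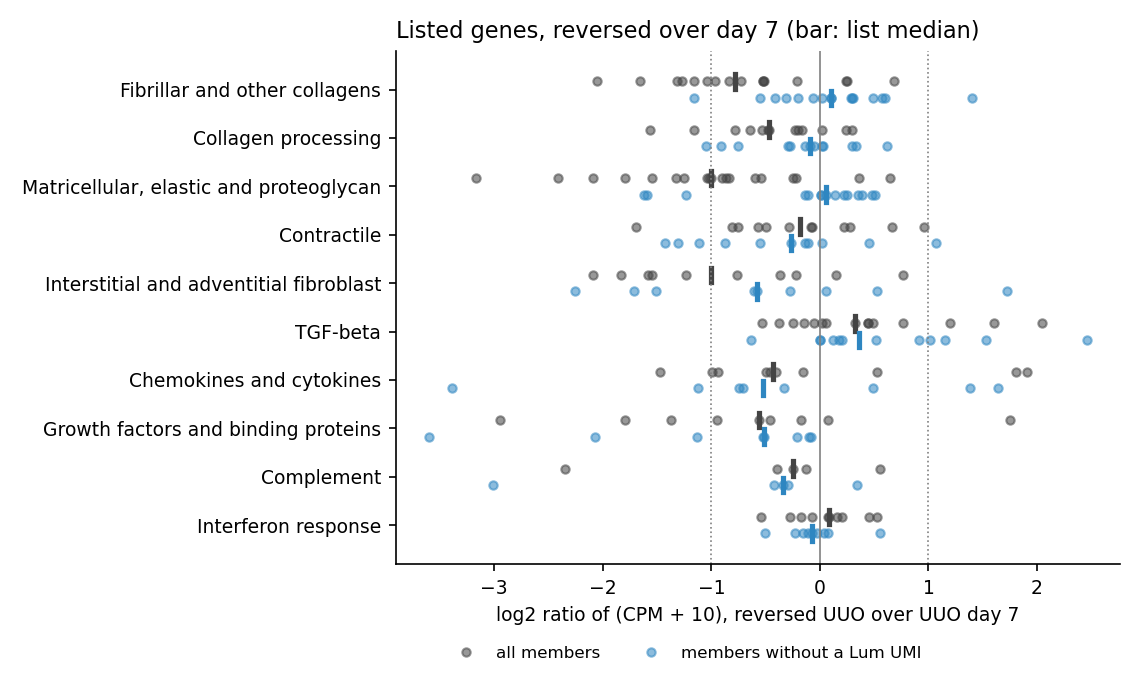
Log2 ratio of CPM + 10, reversed over day 7, of each gene with at least 30 UMIs in 10 gene lists, over all selected cells (grey) and over cells without a Lum UMI (blue); bars are list medians and dotted lines mark the 2-fold limit. The medians of the collagen and matricellular lists are -0.78 and -1.0 over all cells and 0.10 and 0.06 without Lum-positive cells, and the TGF-beta median is above 0 in both. The collagen list includes the rule genes Col1a1, Col1a2 and Col3a1.

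Within each library, cells with and without Acta2 were compared to see what goes with it. On day 7 127 of 2126 genes were higher in Acta2-positive cells (5.97%) and 31 lower (1.46%). After reversal 81 of 2100 were higher (3.86%) and 31 lower (1.48%). The contractile list stood well above these shares, with 7 of 12 higher on day 7 (median 1.5) and 7 of 11 after reversal (median 1.06), Acta2 itself, which made the split, included in both. Tagln was at 59.9 CPM in negative and 1604 CPM in positive cells on day 7 (4.53), and at 379 and 1603 CPM after reversal (2.05), with 36.9% of the day 7 positive cells' UMIs in 1 cell. Myl9, a myosin light chain, was at 3.14 and 2.00, and Tpm2, a tropomyosin, at 2.67 and 2.62. Actn1, an actin cross-linker, was at 1.05 and 1.04. Tpm1 (1.95) and Actg2 (3.01) were past the limit on day 7, and the calponin Cnn2 (1.39) and Des, desmin (1.06), after reversal.

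Few matrix genes were past the limit with Acta2. None of 16 collagens was past the limit in either library, with medians of -0.18 and 0.18. Cyr61 and Aspn were higher with Acta2 on day 7 and Ctgf after reversal, as the only such genes among 19 and 15 matricellular genes. Of 12 collagen processing genes none was past the limit on day 7 (median 0.21) and 1, Fkbp10, after reversal (1.12), where 11 of the 12 were above 0 and the median was 0.38. Pi16 was lower in Acta2-positive cells of both, at -1.86 and -1.07. On day 7 6 of 10 immediate-early and heat shock genes were higher in Acta2-positive cells, among them Fos (1.37), Jun (1.18) and Dusp1 (1.91), and after reversal 0 of 8, a difference that was not tested. Also named were Isg15 and 1500009L16Rik, higher on day 7, and Ahnak2 (-2.45), Herpud1, Serpina3n, Cox6b2, Slc7a2, Pcsk5 and Grina, lower. After reversal Nes, the intermediate filament nestin (1.70), Ehd2, Fdps, Frzb, Ddx21, Ahsa1, Lsm8 and Tgfb1i1 were higher, and Etl4, Mndal, Gm26699, Slfn5, Cdkn1b, Clec2d, Ttc14 and Fign lower, each between -1.65 and 1.75. Several large day 7 ratios were the work of 1 cell, which held 69.7% of the Rgs5, 96.9% of the Mmp3 and 86.3% of the Cxcl5 UMIs of the positive cells. Tubule markers made up a median of 0.264% and 0.192% of UMIs in positive and negative cells on day 7, and 0.430% and 1.18% after reversal. Leukocyte markers made up 0.430% and 0.429% on day 7, and 0.168% and 0.176% after reversal. Of 10 leukocyte markers S100a8 and S100a9 were higher in Acta2-positive cells on day 7, and of 7 after reversal none was past the limit.

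**Figure D5:**
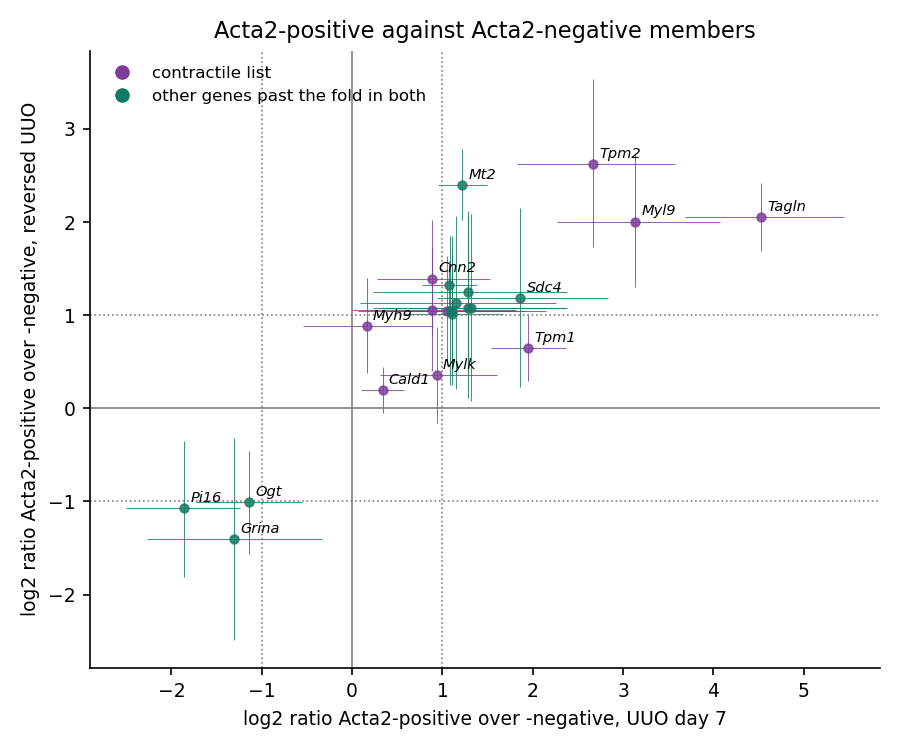
Log2 ratio of CPM + 10 of Acta2-positive over Acta2-negative cells on day 7 (horizontal) and after reversal (vertical), for the contractile genes (purple, without Acta2) and other genes past the 2-fold limit in both (green); lines are exact 95% intervals for counting error and dotted lines mark the limit. Tagln, Myl9 and Tpm2 lie farthest to the upper right, and Pi16, Ogt and Grina are below the lower limit on both axes.

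Of 1796 genes measured in both libraries, leaving out Acta2, 96 were higher in Acta2-positive cells on day 7 and 59 after reversal, and 14 were in both, 14.6% of the first and 23.7% of the second. They were Tagln, Myl9, Tpm2, Actn1, Vcl and Actg1, all of the actin cytoskeleton, and Mt2, Sdc4, Basp1, Tubb6, Srsf9, Hnrnpa1, Angptl4 and Pkm. Mt2 was at 1.22 and 2.40, with 50.6% of the positive cells' UMIs after reversal in 1 cell. Of 22 and 20 lower genes 3 were shared, Pi16, Ogt and Grina. A further 1 gene was past the limit in both libraries in opposite directions.

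Many genes of muscle actin filaments are controlled by serum response factor, whose binding site is the CArG box. RefSeq promoter windows (GRCm38.p6, from 250 bases before to 50 bases after a gene's start) were searched for it. The general pattern of the box is the same on both strands, although the letters of a given box need not be, so the search covered both. A box was in 535 of 32851 windows (1.63%). Of the 14 shared genes 11 had a window, and 3 of these held a box, Actg1, Myl9 and Vcl. Of the 15 contractile genes 12 had one, and Cnn2 and Myl9 held a box. A match is a description of the letters and not a bound site, and genes without a match may have one elsewhere. The 4 boxes, in capitals, are shown with their flanks, on the strand of the gene, because these genes of the actin cytoskeleton were higher with Acta2, Cnn2 after reversal alone and the others in both libraries.
Actg1 chr11:120348551-120348610, minus strand: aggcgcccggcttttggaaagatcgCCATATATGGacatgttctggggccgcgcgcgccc
Cnn2 chr10:79988519-79988578, plus strand: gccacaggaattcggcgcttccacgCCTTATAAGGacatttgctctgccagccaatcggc
Myl9 chr2:156775278-156775337, plus strand: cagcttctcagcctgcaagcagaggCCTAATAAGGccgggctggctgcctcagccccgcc
Vcl chr14:20929148-20929205, plus strand: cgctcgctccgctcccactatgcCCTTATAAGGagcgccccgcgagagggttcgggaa
The boxes began 90, 56, 161 and 227 bases before the start of Actg1, Cnn2, Myl9 and Vcl. In stromal cells with and without Acta2, Vcl, which links actin to the membrane, was at 128 and 46.6 CPM on day 7 (1.29) and 177 and 69.0 CPM after reversal (1.25). Actg1, cytoplasmic gamma actin, was at 1624 and 766 CPM on day 7 (1.08) and 2172 and 862 CPM after reversal (1.32). Cnn2 had 75 and 29 UMIs after reversal, and its day 7 ratio of 0.88 was under the limit.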

How the data were processed

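Raw UMI counts were deposited by the authors as 1 matrix for each of 4 droplet libraries, with 28692 gene identifiers and 16876 cells in all. Cell Ranger and STAR with GRCm38 (mm10) are named in the submitters' processing notes, without versions. Libraries were 10x 3′ V2, per the labels' protocols. The Smart-seq2 plate sample was not used here. A UMI count marks a molecule near its 3′ end, so no scaling by gene length was made.

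Cells under 200 genes or over 50% mitochondrial UMIs were left out. The libraries held 18649637 to 30462683 UMIs. Members were chosen by a fixed rule of marker UMIs, without clustering. No doublet caller was applied beyond the Ptprc, Epcam and Egfl7 limits. Removing the highest Scrublet scores (scanpy 1.11.5), at 0.8% per 1000 deposited cells, was an alternative. Tubule marker cells had at least 2 UMIs over Lrp2, Slc34a1, Umod, Slc12a1, Slc12a3, Aqp2 and Epcam and no Ptprc. Leukocyte marker cells had Ptprc and no Epcam or Egfl7, and endothelial marker cells at least 3 UMIs over Egfl7, Pecam1, Kdr and Emcn and no Ptprc or Epcam. Cells meeting several definitions were left out of all.

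UMIs were summed over cells and expressed as CPM. Ratios have exact conditional binomial 95% intervals, CPM exact Poisson and shares exact Clopper-Pearson intervals, all for counting error only. A count of 0 was set to 3 counts over the group for folds and limits. Comparisons needed at least 15 cells per group, so day 2 and sham gave levels only. With 1 library per condition no p-values are given. The ratio script was tested on simulated counts.

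Genes named are those of the lists, and for each comparison the 8 largest differences in each direction with at least 30 UMIs, at least 2-fold, an interval without 0, a UMI in at least 20% of cells of the higher group and at most 25% of its UMIs in 1 cell. Rule genes, mitochondrial, ribosomal, haemoglobin and immunoglobulin genes and the markers of other cell types were left out. Members and lists were chosen with earlier results of these data known. The Lum comparisons, Cthrc1 and the imprinted genes were added with the data already seen. Software comprised pandas 2.3.3, numpy 2.4.6 and scipy 1.17.1 under Python 3.11.15, matplotlib 3.10.9, and in R 4.3.3 edgeR 4.0.16 (TMM factors only) and DESeq2 1.42.0 (size factors only). Some genes are not reported here.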

Additional observations from a re-analysis of the deposited data

How the results depend on the processing

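No paired analysis was possible because each condition was 1 library and no result comes from a test. Scaling hardly mattered, since the factors of edgeR and DESeq2 lay between 0.993 and 1.01, and with DESeq2 factors 96 genes were higher and 144 lower after reversal. At a collagen sum of at least 3, 1 sham cell entered. The reversed share was 2.51% with a mitochondrial limit of 20%, and without tubule marker cells the shares of day 2 and reversal were 0.399% and 3.26%. With at least 2 UMIs the Acta2 share was 33.3% on day 7, and the Pdgfrb share 56.9% on day 7 and 42.3% after reversal. Thinned to 1000 UMIs, Acta2 was at 23.5% and 21.2%, Pdgfrb at 29.4% and 19.2%, and Lum at 17.6% on day 7.

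Counts of genes past the limit depend on depth and on the added constant. Reversed over day 7, higher and lower genes numbered 32 and 65 with 50 CPM added, 473 and 388 with no minimum, 24 and 50 with at least 100 UMIs, and 49 and 84 among genes above the marker cells of the other types, an alternative chosen after seeing the data. The share of higher among all called genes was 42.5% as reported, 33.0% with 50 CPM, 54.9% with no minimum and 32.4% with at least 100 UMIs. For Acta2 on day 7 they numbered 52 and 13 with 50 CPM, 14 and 4 thinned, and 48 were lower with cells weighted equally. For Acta2 after reversal they numbered 28 and 9 with 50 CPM, 19 and 2 thinned, and 125 were higher with cells weighted equally. For Lum on day 7, a split also chosen after seeing the data, 68 were lower with 50 CPM, and 22 and 15 were past the limit thinned. Few genes have enough UMIs once thinned, 209 on day 7 and 200 after reversal. Of the genes higher with Acta2 when thinned, 4 on day 7 and 5 after reversal were also higher unthinned, and of the lower genes 0 in both.

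Of 78 named or listed genes past the limit between reversal and day 7, 5 outside the rule genes turned direction, all in cells without a Lum UMI, chosen after seeing the data: Col5a1 (0.30), Ctgf (0.14), Fbln1 (0.35), Mfap4 (0.0068) and Mfap5 (0.0552). The rule genes Col1a1 (1818 and 2222 CPM) and Col1a2 (2555 and 2741 CPM) also turned in those cells and are not among the 5. Of 743 values of the 78 genes under alternatives, 44 kept the direction but were under the limit. For Acta2 on day 7, Acta2 after reversal and Lum these were 24 of 198, 31 of 171 and 30 of 291, with no reversal. Of 231 list medians 33 moved. Both the cell number, 107 in all, and the depth per cell limit the ratios, and a few deep cells carry many of the counts.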

Other observations

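Of 8 imprinted genes with enough UMIs, 4 were at least 2-fold lower in the stromal cells after reversal and none was higher. Over all 4013 genes with enough UMIs, 3.26% were lower and 2.42% higher. The imprinted list was put together after the data had been seen, so its count is a description only. Its median log2 ratio was -1.21. The median depends on the UMI minimum, which H19 passed by its day 7 UMIs alone. With no minimum 5 of 14 were lower (median -0.71), and with at least 100 UMIs 2 of 3 (-3.92). With 50 CPM added the median was -0.74. H19, a maternally expressed noncoding RNA of fetal tissues, had 167 UMIs in 21.6% of day 7 cells and 0 UMIs in 52 reversed cells, at least 54.9-fold lower, and 47.9% of the day 7 UMIs were in 1 cell. Besides Meg3, Peg3 was at 158 and 32.9 CPM (-1.96), with 46.0% of its day 7 UMIs in 1 cell, and Grb10, an adaptor that restrains insulin and growth factor receptors, at 110 and 27.9 CPM (-1.66). Gnas, Ndn and Sgce were near equal, at 0.07, -0.04 and 0.02. Of 5 imprinted genes with enough UMIs for the Lum comparison on day 7, H19, Meg3 and Peg3 were higher in Lum-positive cells, and Grb10 (0.36) and Gnas (-0.29) were not past the limit. Over all 2126 genes of that comparison 4.42% were higher. H19 was at 831 CPM in Lum-positive against 73.3 CPM in Lum-negative cells, and Peg3 at 264 against 68.7 CPM. Among Lum-negative cells 2 imprinted genes had enough UMIs for a ratio, and neither was past the limit.

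Other genes were named after their values were seen, with Sema3d, Cpe and Npr3 higher after reversal and Cxcl5, Saa3 and Wisp2 lower. Sema3d, a secreted guidance protein, was at 77.5 and 281 CPM (1.74) against at most 36.7 CPM in the marker cells, and Cpe, carboxypeptidase E, at 57.5 and 223 CPM (1.79) and found in 23.5% and 67.3% of cells, against at most 57.2 CPM in the marker cells. Npr3, the clearance receptor of natriuretic peptides, was at 32.5 and 129 CPM (1.71), with 80.0 and 44.9 CPM in endothelial marker cells. Cxcl5, a chemokine of neutrophils, Saa3, an acute phase gene, and Wisp2 were at 51, 43 and 47 UMIs on day 7 and at 0, 0 and 1 after reversal. Of the day 7 UMIs 86.3%, 53.5% and 42.5% were in 1 cell.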
